A study of Mus musculus with 6 samples.

Results

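The genes of the proteasome, the protein complex that degrades ubiquitin-tagged proteins, were described in ovaries of 13.5 dpc CD1 mouse embryos. Members were the protein-coding genes of the count table whose symbols name a Psma, Psmb, Psmc, Psmd or Psme subunit, and there were 43 of them among 48709 genes. RNA of 3 control pools and 3 APAP+IBU pools was compared, and each pool held the gonads of several embryos, so the spread is between pools and not between embryos. The dams were given acetaminophen (APAP, 30 mg/kg per day) and ibuprofen (IBU, 15 mg/kg per day) alternately by gavage from 10.5 to 13.5 dpc, and control dams received the diluent alone. No transgene or deletion was involved. Only IBU appears in the titles of the exposed samples, but the exposure label gives both drugs, as do the methods. Fewer cells of a type and less RNA per cell cannot be told apart in such pools.

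The proteasome is built from a hollow core particle and regulators that cap it. The core has rings of alpha subunits (Psma genes), which form the gate, and rings of beta subunits (Psmb genes), of which Psmb5, Psmb6 and Psmb7 carry the proteolytic sites. The cap that accepts ubiquitin-tagged proteins has a base with the ATPases that unfold them (Psmc genes) and the subunits Psmd1, Psmd2 and Psmd4, and a lid (other Psmd genes) that holds Psmd14, the enzyme that removes the ubiquitin chain. In cells responding to interferon, Psmb8, Psmb9 and Psmb10 take the place of the proteolytic subunits, and Psme1 with Psme2 forms another cap. Psma8 is a testis form of an alpha subunit, Psmb11 a form of thymic epithelium, and Psme3 and Psme4 encode further caps. Psmd5, Psmd9 and Psmd10 encode chaperones that assemble the base and are not part of the finished particle.

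Promoter windows of 300 bases were available for 36 of the 43 genes, as 39 windows of RefSeq on GRCm38.p6, from 250 bases before the annotated start to 50 bases after it. They were searched on both strands for TGACNNNGC, the antioxidant response element that Nfe2l1 and Nfe2l2 bind, for CCAAT, and for the interferon-stimulated response element in the form of a GAAA repeated after 2 further bases. The first was found in 6 of the 39 windows (15.4%) and in 12.4% of 32851 windows of all genes, and it was in those of Psmb5, Psmb6, Psmc6, Psmd9, Psmd12 and Psme4. CCAAT was in 35.9% of the member windows and 37.4% of all. The interferon-stimulated element was in 10.3% of the member windows, those of Psmb3, Psmd4, Psmd9 and Psme1, and in 3.44% of all. No window of the immune genes Psmb8, Psmb9, Psmb10 and Psme2 held it. The windows of the proteolytic subunits Psmb5 and Psmb6 and of the immune cap subunit Psme1 are shown, because these genes had among the widest ranges across libraries. Capitals mark the match, which lies 47 to 39 bases before the start in Psmb5, 9 to 1 bases before it in Psmb6, and on the opposite strand at bases 10 to 19 after it in Psme1.
Psmb5, chr14:54617946-54618245, minus strand: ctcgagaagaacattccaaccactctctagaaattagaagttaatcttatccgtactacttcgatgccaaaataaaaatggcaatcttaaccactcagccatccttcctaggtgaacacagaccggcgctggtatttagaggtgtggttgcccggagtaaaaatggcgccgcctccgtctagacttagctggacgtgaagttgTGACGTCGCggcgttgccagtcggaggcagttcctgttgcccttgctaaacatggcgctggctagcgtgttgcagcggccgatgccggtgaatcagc
Psmb6, chr11:70525107-70525406, plus strand: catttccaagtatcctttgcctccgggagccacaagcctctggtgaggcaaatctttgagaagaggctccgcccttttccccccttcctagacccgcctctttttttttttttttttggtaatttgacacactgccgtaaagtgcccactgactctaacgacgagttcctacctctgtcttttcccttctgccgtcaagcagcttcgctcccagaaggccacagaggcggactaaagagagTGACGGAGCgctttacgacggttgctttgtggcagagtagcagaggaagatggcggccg
Psme1, chr14:55578244-55578543, plus strand: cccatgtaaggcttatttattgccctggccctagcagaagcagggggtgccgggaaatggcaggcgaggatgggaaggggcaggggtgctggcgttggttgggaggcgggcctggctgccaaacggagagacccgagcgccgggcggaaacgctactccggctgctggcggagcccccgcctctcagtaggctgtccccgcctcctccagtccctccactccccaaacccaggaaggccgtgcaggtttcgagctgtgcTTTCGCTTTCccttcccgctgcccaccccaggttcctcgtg

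Before the members are taken one by one, a difference between libraries has to be given. Total counts ran from 37811968 to 48954631 per library, and the 2 libraries numbered replicate 3 stood apart from the others. In normalised counts (CPM, scaled by TMM), the liver marker genes summed to between 173 and 526 in replicates 1 and 2 of both groups, to 1900 in the third control pool and to 3080 in the third exposed pool. Control replicate 3 was the lowest control for 31 of the 43 members (72.1%) and for 42.1% of all tested genes. APAP+IBU replicate 3 was the highest exposed library for 36 members (83.7%) and for 40.4% of all tested genes. Results are given for all 6 libraries, and a comparison of replicates 1 and 2 alone follows as a description. Those 4 libraries were chosen with earlier results of these data known, and leaving out both replicate 3 libraries removes, for most members, the lowest control and the highest exposed value, so that lower calls among them are favoured by the choice and support nothing on their own. Germ cell markers summed to between 1020 and 1220 CPM and gonadal somatic markers to between 810 and 1060 CPM in the 6 libraries. The germ cell sum joins genes that went in opposite directions, 2 above 0 and 3 below 0 in log2 fold change. Dazl ran from 368 CPM in control replicate 1 to 592 CPM in APAP+IBU replicate 2. Pou5f1 ran from 57.5 CPM in APAP+IBU replicate 1 to 144 CPM in control replicate 1. Of the somatic list, Foxl2 was low and uneven, from 0.944 CPM in control replicate 3 to 8.16 CPM in control replicate 1. The part of the liver RNA in the results below was not tested.

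Per kilobase of transcript, the subunits of the constitutive particle were among the abundant transcripts of the ovary. The levels, in CPM per kilobase averaged over the 6 libraries, had medians of 120 for the 7 alpha genes, 141 for the 7 beta genes, 95.6 for the 9 base genes and 72.4 for the 8 lid genes. Psmb6 was highest at 262, followed by the ubiquitin receptor Psmd2 at 209 and the alpha subunit Psma6 at 196. Although each core subunit occurs in equal number in the particle, the 14 constitutive core genes spanned a 5.46-fold range, from 48.0 for Psma3 to 262 for Psmb6. The 17 base and lid genes spanned 5.31-fold, from 39.3 for the lid gene Psmd11 to 209 for Psmd2. The order of the 31 core, base and lid genes was similar in all libraries, with a Spearman correlation across genes of 0.866 to 0.99 over the 15 pairs of libraries; genes are not replicates, and all pairs share the same transcript lengths. Psma3 and Psma2 were annotated with long transcripts (2846 and 2911 bp), which lowers their level per kilobase.

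**Figure D1:**
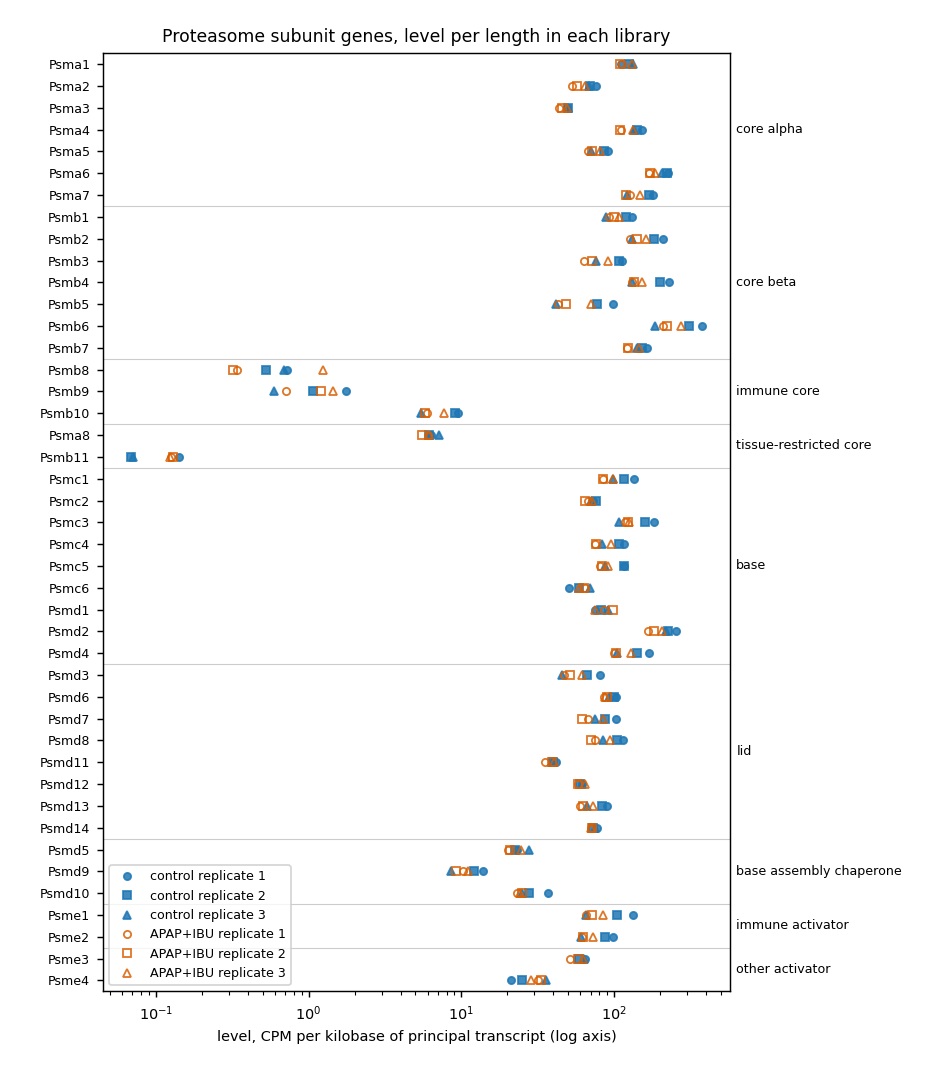
Level of each of the 43 subunit genes in CPM per kilobase of principal transcript (log axis), one point per library, filled for control and open for APAP+IBU, with the marker shape giving the replicate number. The core, base and lid genes lie together from 39.3 to 262 on average, while Psmb8, Psmb9 and Psmb11 lie lowest.

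The base chaperones were lower than the subunits they assemble, at 10.8 CPM per kilobase for Psmd9, 23.0 for Psmd5 and 27.0 for Psmd10. Of the caps other than the ATPase cap, Psme1 and Psme2 had 87.5 and 73.7 CPM per kilobase, Psme3 had 59.7, and Psme4 had 29.2. The immune core subunits were far below these, with 7.25 for Psmb10, 1.13 for Psmb9 and 0.642 for Psmb8, and Psmb11 was lowest of all at 0.11. Psmb11 rested on 11 to 27 counts per library and Psmb8 on 24 to 78. Psma8 had 6.21 CPM per kilobase. As percentiles of the levels of all tested protein-coding genes, Psmb6 stood at 99.0, Psmd2 at 98.6, Psme1 at 95.7, Psmb10 at 46.8, Psma8 at 43.7, Psmb9 at 21.1 and Psmb8 at 15.4.

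With all 6 libraries, no proteasome gene changed significantly in exposed ovaries. All 43 were among the 20167 genes tested by edgeR's quasi-likelihood test, 0 had a Benjamini-Hochberg adjusted p under 0.05, and the smallest adjusted p among them was 0.692. The background was 0.0% of all tested genes, and 1254 genes had an unadjusted p under 0.05. DESeq2 gave 192 genes (0.952%) an adjusted p under 0.05, and 0 members. The log2 fold change (exposed over control) was below 0 in 39 of the 43 genes (90.7%), against 50.6% of all tested genes, and its median was -0.27, against -0.01 for all tested genes. The 4 genes above 0 were Psmb11 (0.42), Psme4 (0.19), Psmd1 (0.07) and Psmc6 (0.06), none of which passed the test. The unadjusted p was under 0.05 for 4 lower members (9.3%, background 3.21%) and 0 higher ones (background 3.0%). In 8 members every exposed library lay below every control library (18.6%, background 5.92%), and in 0 did every exposed library lie above (background 4.78%). These 8 were Psma2, Psma4, Psma6, Psmc1, Psmd2, Psmd6, Psmd10 and Psmd14.

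The member with the smallest p was Psma6, an alpha subunit of the gate. It had 234, 231 and 214 CPM in control replicates 1 to 3 and 175, 179 and 193 CPM in APAP+IBU replicates 1 to 3. The log2 fold change was -0.31 with a standard error (SE) of 0.11 (edgeR adjusted p = 0.692). The highest exposed library stood below the lowest control. Psmc1, an ATPase of the base, had 214, 185 and 157 CPM in controls and 134, 134 and 155 in exposed ovaries (log2 fold change -0.40, SE 0.15, edgeR adjusted p = 0.692). Here control replicate 3 and APAP+IBU replicate 3 nearly met, and the groups did not overlap. Psma2, another gate subunit, had 222, 203 and 198 CPM against 154, 165 and 187 (log2 fold change -0.30, SE 0.13, edgeR adjusted p = 0.692). The ubiquitin receptor Psmd2 had 752, 668 and 645 CPM against 494, 542 and 608 (log2 fold change -0.33, SE 0.14, edgeR adjusted p = 0.692). In both, APAP+IBU replicate 3 was the exposed library nearest to the controls. Psma4, also of the gate, had 179, 165 and 158 CPM against 129, 127 and 154, with no overlap (edgeR adjusted p = 0.692).

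**Figure D2:**
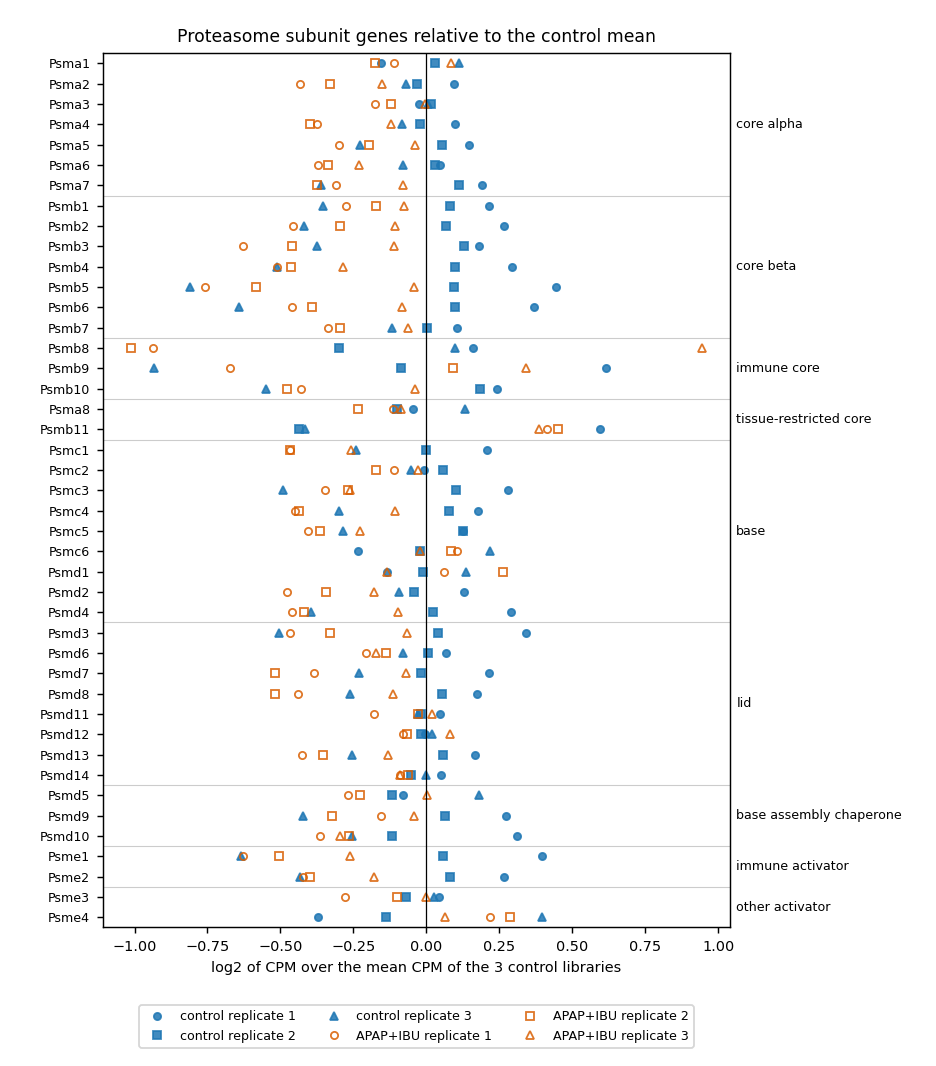
Log2 of the CPM in each library over the mean of the 3 control libraries, for the 43 genes grouped by their place in the particle; filled points are controls, open points APAP+IBU, and shapes give the replicate number. Open circles and squares lie left of most filled circles and squares. In all 7 beta genes the filled triangle (control replicate 3) is the lowest control, and the open triangle lies right of it. Among the beta genes the filled triangle lies left of every open point in Psmb1, Psmb5 and Psmb6. It also does so in Psmb9, Psmb10, Psmb11, Psmc3, Psmd3, Psmd9, Psme1 and Psme2.

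The beta genes had the widest spread between replicates of the constitutive core. Psmb5, the chymotrypsin-like proteolytic subunit, had 88.9, 69.8 and 37.3 CPM in controls and 38.6, 43.6 and 63.4 CPM in exposed ovaries. Control replicate 3 was therefore below every exposed library and controls 1 and 2 above every one. The log2 fold change was -0.43 (SE 0.32, edgeR adjusted p = 0.7), the next to lowest of the members after Psme1. Psmb6, the caspase-like subunit, had 298, 247 and 148 CPM against 168, 176 and 218 (log2 fold change -0.30, SE 0.25). Psmb7, the trypsin-like subunit, varied less, with 190, 177 and 163 CPM against 140, 144 and 169 (log2 fold change -0.23, SE 0.13). In all 7 beta genes APAP+IBU replicate 3 was above control replicate 3, the opposite of replicates 1 and 2. Over all 43 members this held for 27 (62.8%), against 50.7% of all tested genes. The summed level of the 7 beta genes was 1340, 1179 and 826.9 CPM in controls and 821.3, 875.4 and 1027 CPM in exposed ovaries, whereas that of the 7 alpha genes was 1183, 1151 and 1069 CPM against 916.8, 930.8 and 1066 CPM.

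The immune cap followed the pattern of the beta genes. Psme1 had the lowest log2 fold change of the members, -0.46 (SE 0.25, edgeR adjusted p = 0.692), with 148, 117 and 72.4 CPM in controls and 72.8, 79.3 and 93.9 CPM in exposed ovaries. Its partner Psme2 had 95, 83.5 and 58.5 CPM against 59.0, 59.9 and 69.7 (log2 fold change -0.33, SE 0.19). In both, control replicate 3 was below the exposed libraries and the other controls were above them all. Psme2 has the near copy Psme2b, with 14.1 to 23.9 CPM, and the handling of reads that the copies share was not tested. Psme1 and Psme2 lie close together on chromosome 14 of GRCm38, at 55578123-55581529 and 55587441-55591113.

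In the immune core subunits no difference was detectable at this depth and spread. Psmb8 had 1.18, 0.857 and 1.13 CPM in controls and 0.552, 0.524 and 2.03 CPM in exposed ovaries, so that the exposed libraries held both the lowest and the highest values (log2 fold change -0.04, SE 0.55). Psmb9 had 2.36, 1.45 and 0.806 CPM against 0.966, 1.64 and 1.95 (log2 fold change -0.02, SE 0.45). Both lie beside the peptide transporter gene Tap1 in the histocompatibility region of chromosome 17, Psmb8 at 34197721-34201454 and Psmb9 at 34181987-34187764, and Psmb9 shares 212 bp of exon with Tap1 on the opposite strand. Psmb10 had 12.4, 11.9 and 7.16 CPM against 7.79, 7.53 and 10.2 (log2 fold change -0.31, SE 0.26), the order of libraries seen in the beta genes. Macrophage markers, from cells that express immune subunits, summed to 93.8, 95.4 and 73.1 CPM in controls and to 58.2, 60.2 and 93.9 CPM in exposed ovaries, with 8 of 9 genes below 0 in log2 fold change and none at 0 in every library; their part in these values was not tested.

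Each immune subunit was next set against the constitutive subunit whose place it takes, as a ratio within a library, which needs no scaling between libraries. Psmb8 per kilobase came to 0.733, 0.678 and 1.67% of Psmb5 in controls and to 0.79, 0.664 and 1.77% in exposed ovaries. Psmb9 came to 0.468, 0.345 and 0.321% of Psmb6 against 0.34, 0.548 and 0.53%. Psmb10 came to 5.8, 5.96 and 3.9% of Psmb7 against 4.92, 4.64 and 5.32%. The groups overlapped in all 3 ratios. The differences in log2 ratio, exposed minus control, were 0.06 for Psmb8/Psmb5 (exact permutation p = 0.8), 0.31 for Psmb9/Psmb6 (exact permutation p = 0.3) and -0.05 for Psmb10/Psmb7 (exact permutation p = 0.9). These two-sided tests of 3 against 3 cannot go below 0.1, and over the 4 ratios tested every adjusted p was 0.9. Taken as a sum over the proteolytic places, the immune forms made up 1.85, 1.94 and 1.8% in controls and 1.84, 1.82 and 2.09% in exposed ovaries. The constitutive forms thus held nearly all of the transcripts for the proteolytic subunits in both groups.

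**Figure D3:**
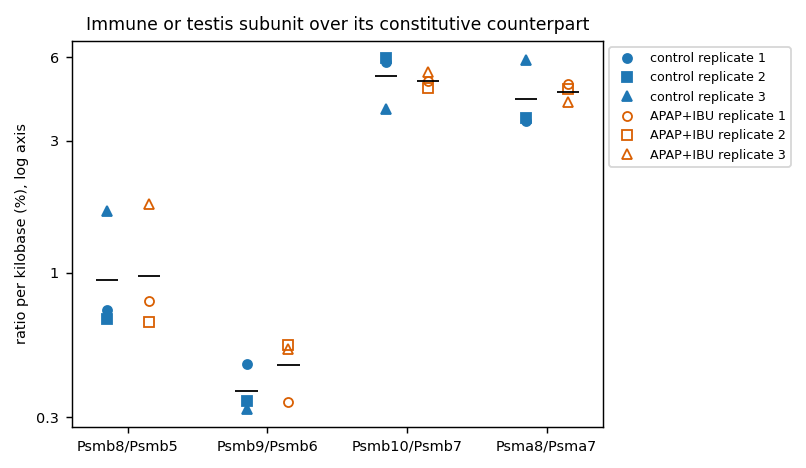
Level per kilobase of an immune or testis subunit as a percent of its constitutive counterpart (log axis), one point per library, with a bar at the geometric mean of each group. The control and APAP+IBU points overlap in all 4 pairs, and Psmb8/Psmb5 is highest in the 2 replicate 3 libraries, at 1.67 and 1.77%.

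The subunits of restricted tissues showed no change that passed the test. The testis form Psma8 had 10.7, 10.3 and 12.1 CPM in controls and 10.2, 9.37 and 10.4 CPM in exposed ovaries (log2 fold change -0.15, SE 0.16), and overlapped between the groups. Its ratio to Psma7 was 3.55, 3.63 and 5.88% against 4.81, 4.6 and 4.15% (log2 difference 0.09, exact permutation p = 0.8). Spermatid markers summed to 139, 41.5 and 37.8 CPM in controls and 5.52, 1.77 and 2.86 CPM in exposed ovaries, and all 10 of them were below 0 in log2 fold change. In that list every exposed library was below every control, an order that Psma8 did not share. The cells that the Psma8 RNA came from were not tested. The thymic form Psmb11, which lies next to Psmb5 on chromosome 14, had 0.603, 0.295 and 0.299 CPM against 0.532, 0.546 and 0.521 (log2 fold change 0.42, SE 0.40).

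The remaining named subunits did not pass the test either. Psmd14, the deubiquitinating enzyme of the lid, had 119, 111 and 115 CPM in controls and 108, 110 and 108 CPM in exposed ovaries, a narrow gap without overlap (log2 fold change -0.08, SE 0.10). Psmd4, a ubiquitin receptor like Psmd2, ranged more widely, with 224, 186 and 139 CPM against 133, 137 and 171 (log2 fold change -0.32, SE 0.19). Psme3, a cap found in the nucleus, had 171, 158 and 169 CPM against 137, 155 and 166 (log2 fold change -0.12, SE 0.12). Psme4, the large single-chain cap, went the other way, with 137, 161 and 233 CPM against 206, 216 and 185 (log2 fold change 0.19, SE 0.20), and control replicate 3 was its highest library. In 14 members (32.6%) the controls alone ranged over more than 1.5-fold, as they did in 49.8% of all tested genes.

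Replicates 1 and 2 of each group, taken alone, gave many lower calls among the proteasome genes, where all 6 libraries gave 0. At an edgeR adjusted p under 0.05, 25 of the 43 members were lower (58.1%, background 12.9% of 20633 genes), and 1 was higher (2.33%, background 14.2%). The lower ones were all 7 beta genes, 5 of 7 alpha genes, 6 of 9 base genes, 4 of 8 lid genes, Psme1, Psme2 and Psmb10. The other 17 of the 43 did not pass in either direction, among them all 3 base chaperones, 4 lid genes and 3 base genes, of which Psmd1 and Psmc6 had log2 fold changes of 0.26 and 0.24. Over the 43 genes, log2 fold changes had a median of -0.41, with -0.64 for the beta genes, -0.37 for the alpha genes, -0.48 for the base and -0.34 for the lid. The lowest log2 fold changes among those that passed were those of Psmb5 (log2 fold change -0.93, SE 0.13, adjusted p = 0.0067 in edgeR) and Psme1 (-0.78, SE 0.13, adjusted p = 0.00757 in edgeR). Psme4 was the member called higher (0.52, SE 0.11, adjusted p = 0.014 in edgeR). In these 4 libraries the liver markers summed to 243 and 526 CPM in controls against 173 and 368 CPM in exposed ovaries, and the spermatid markers to 139 and 41.5 against 5.52 and 1.77 CPM. Erythroid markers summed to 5390 and 12600 CPM in controls against 2320 and 4180 CPM, testis cord markers to 14.1 and 16.9 against 8.16 and 8.04 CPM, and macrophage markers to 93.8 and 95.4 against 58.2 and 60.2 CPM. The part of these cells in the calls was not tested. When control replicate 3 alone was left out of the 6, Psmb4, Psmc3, Psmc5 and Psme1 passed at an edgeR adjusted p under 0.05 (4 members, 9.3%, background 5.16%), and an unadjusted p under 0.05 was reached by 27 lower members (background 15.4%). When APAP+IBU replicate 3 alone was left out, 0 passed after adjustment and 13 lower members had an unadjusted p under 0.05 (background 6.22%). Leaving out any one of the other 4 libraries left 0 members at an unadjusted p under 0.05. Of 20620 to 20939 tested genes, 424 to 484 were lower at that p and 155 to 250 higher in these 4 fits.

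The fold changes moved with the base composition and length of the transcripts. Across the 43 members, the log2 fold change with replicates 1 and 2 had a correlation across genes of -0.65 with GC content and 0.68 with log2 transcript length, and across 20007 tested genes these were -0.38 and 0.26. The members had a median length of 1541 bp, against 2671 bp for these genes, and a median GC content of 49.7%, against 49.4%. Within the controls, the log2 ratio of replicate 3 to replicate 1 had a correlation with GC content of -0.73 across the members and -0.47 across all tested genes, with no exposure between them. The 20 members of at least 50% GC had a median log2 fold change of -0.56 in replicates 1 and 2, and 16 of them (80%) passed the test as lower, against 20.9% of the 9336 tested genes of that GC content. The 12 members under 45% GC had a median of -0.11, with 3 lower (25.0%) and 1 higher (8.33%), against 3.33% lower and 31.1% higher of 5317 tested genes. Among all tested genes, the medians were -0.23 at 50% GC or more and 0.37 under 45%.

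**Figure D4:**
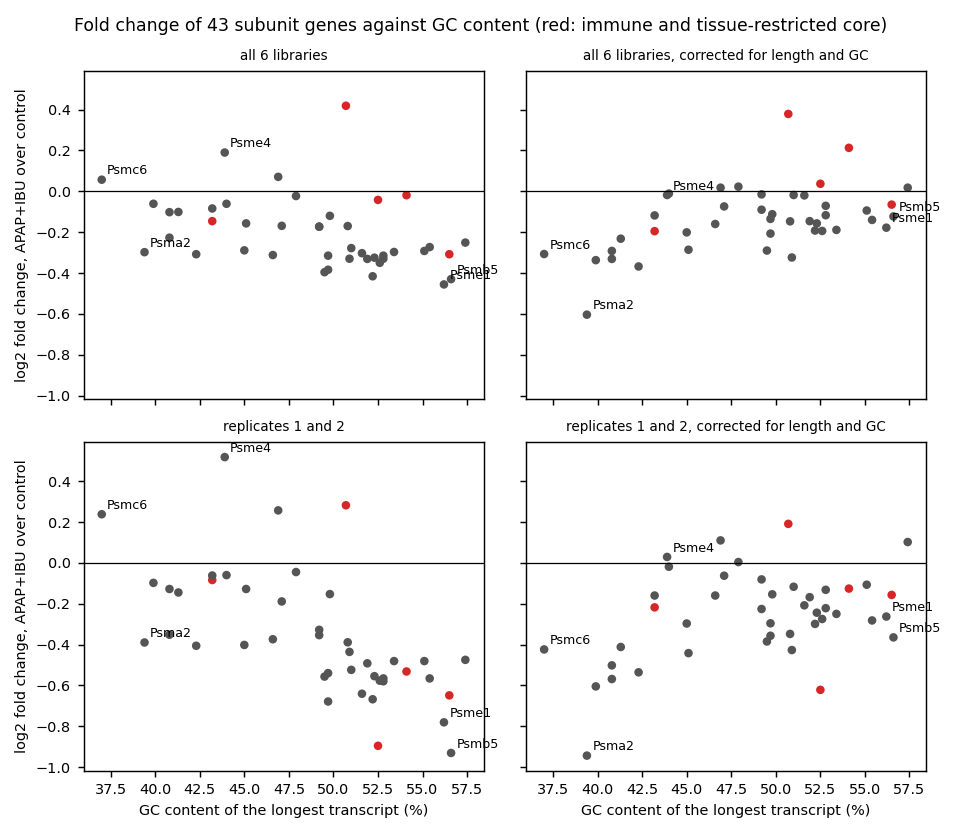
Log2 fold change (APAP+IBU over control) of the 43 subunit genes against the GC content of the longest transcript in percent, with all 6 libraries (top) and replicates 1 and 2 (bottom), before (left) and after (right) correction for length and GC content; red points are immune and tissue-restricted core genes. Before correction the GC-rich genes lie lowest (correlation -0.65 with replicates 1 and 2), and after it the lowest gene is Psma2, of low GC content (correlation 0.40).

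After each library was corrected for length and GC content, fewer members passed, and other ones. With replicates 1 and 2, 10 members were lower at an adjusted p under 0.05 (23.3%, background 6.85%) and 0 were higher (background 5.1%), with a median log2 fold change of -0.24, against -0.03 for all tested genes. The gate subunits Psma2 and Psma3, the proteolytic subunits Psmb5 and Psmb7, the ATPases Psmc1, Psmc2 and Psmc6, the lid gene Psmd11, Psmd2 and the chaperone Psmd5 were the 10. Psma2, Psmb5, Psmb7, Psmc1 and Psmd2 were lower both with and without the correction, in 2 fits to the same 4 libraries. After it, 6 of the 12 members under 45% GC were lower (50%), against 10.3% of all tested genes of that GC content. At 50% GC or more, 2 of the 20 members were lower (10%), against 4.81%. The correlation of the corrected fold change with GC content was 0.40 across the members and 0.01 across all tested genes. Psme4 no longer differed beyond its error, at 0.03 (SE 0.10), and Psme1 had -0.26 (SE 0.10, adjusted p = 0.109 in edgeR). Psmc6 went from 0.24 (SE 0.10) to -0.42 (SE 0.09, adjusted p = 0.0225 in edgeR). The largest corrected change was that of Psma2 (-0.94, SE 0.13, adjusted p = 0.00783 in edgeR), whose long annotated transcript enters the correction. With all 6 libraries and the correction, 0 members passed after adjustment, and the lower members at an unadjusted p under 0.05 numbered 6 (14%, background 5.72%) and the higher ones 0 (background 4.15%). These 6 were Psma2, Psma3, Psmc1, Psmc6, Psmd2 and Psmd5, and the median of the 43 was -0.14.

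The genes that assemble, feed and regulate the proteasome were taken from a list of 37, of which 36 were tested and Paaf1 was not analysed here. With all 6 libraries 0 of the 36 passed after adjustment, 2 (5.56%) had an unadjusted p under 0.05, against 6.22% of all tested genes, and the median log2 fold change was -0.07. Pomp, the chaperone of the core particle, had 141, 137 and 110 CPM in controls and 88.3, 88.7 and 112 CPM in exposed ovaries (log2 fold change -0.43, SE 0.15, edgeR adjusted p = 0.692). The other was the ubiquitin gene Rps27a, named after its values were seen (log2 fold change -0.52, SE 0.22, edgeR adjusted p = 0.692). Nfe2l1, the factor that drives subunit genes when proteolysis fails, had 274 ± 34.8 CPM in controls and 247 ± 13.6 CPM in exposed ovaries (SD, n = 3). Its log2 fold change of -0.15 (SE 0.14) did not pass the test.

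Genes of peptide presentation, for which the immune subunits cut peptides, did not pass with all 6 libraries either. B2m, the light chain of the presenting molecules, had 82.2 ± 1.30 CPM in controls and 86.4 ± 17.1 CPM in exposed ovaries (SD, n = 3). H2-K1, a heavy chain, had 51.4 ± 18.5 and 49.8 ± 11.5 CPM (SD, n = 3). The transporter Tap1 had 8.33 ± 3.06 and 7.31 ± 0.0829 CPM (SD, n = 3). With replicates 1 and 2, 11 of the 36 listed genes (30.6%) were lower at an edgeR adjusted p under 0.05 and 1 (2.78%) was higher, beside the backgrounds of 12.9% and 14.2%, and Pomp was among the lower ones (log2 fold change -0.63, SE 0.09, adjusted p = 0.00632). With the correction added, 6 were lower (16.7%, background 6.85%) and 1 was higher (2.78%, background 5.1%), and Pomp had -0.47 (SE 0.09, adjusted p = 0.0151 in edgeR). The higher gene was H2-D1, another presenting heavy chain (log2 fold change 0.55, SE 0.12, adjusted p = 0.0238 in edgeR).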

How the data were processed

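RNA of 13.5 dpc ovaries was sequenced by the authors in 3 control and 3 APAP+IBU pools as stranded polyadenylated paired-end libraries from 300 ng of total RNA. Reads were mapped to mm10 with TopHat2 2.0.14 and Bowtie2 2.1.0 and counted on genes of Ensembl release 86 with HTSeq 0.6.1, and the raw counts were deposited without normalisation. The strand setting of the counting is not given in the sources used here, so reads of overlapping antisense genes may be included. Groups came from the exposure label and replicate numbers from the sample titles.

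From the deposited counts, all 6 libraries were fitted with edgeR's quasi-likelihood test (version 4.0.16, R 4.3.3) after its expression filter and TMM scaling, and p-values were adjusted by the Benjamini-Hochberg method over all tested genes. Standard errors were derived from the fold change and the F statistic. Levels are CPM with TMM, and levels per kilobase use the principal coding transcript of GENCODE M21, whose assembly GRCm38 is mm10. The correction for length and GC content subtracted from each library a loess curve (span 0.3). Length was that of the principal coding transcript, or the exonic length where there was none, and GC content that of the longest transcript. DESeq2 1.42.0, other scalings and filters, the replicate number as a block, replicates 1 and 2 only, and leaving out each library were the alternatives. The uncorrected edgeR fits to all 6 libraries and to replicates 1 and 2 were tested on simulated counts. These had the same dispersion for every gene and held no replicate 3 shift and no length or GC effect. The corrected and DESeq2 fits were not simulated. Libraries of one group differed by a chi-square per degree of freedom of 19 to 159, so none was a duplicate. Per the methods, each pool came from 2 pregnant females of an independent experiment, and p-values measure the spread between pools.

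The members, lists and named genes were chosen with earlier results of these data known. The named genes were the proteolytic, immune, tissue-restricted, cap, receptor and lid enzyme genes, the 5 members with the smallest p, the 2 highest and 2 lowest fold changes, and Pomp, Nfe2l1, B2m, H2-K1 and Tap1. Over all 6 libraries, the other marker lists summed to between 2320 and 12600 CPM (erythroid), 345 and 465 (endothelial), 6.75 and 16.9 (testis cords), and 7.79 and 17.6 (thymic epithelium).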

Additional observations from a re-analysis of the deposited data

How the results depend on the processing

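The median log2 fold change of the members, less that of all tested genes, was -0.27 and stayed between -0.13 and -0.40 under every alternative run. The number of lower members at an unadjusted p under 0.05 was 4 with all 6 libraries; this became 7 with upper quartile scaling, 2 with total counts, 2 without the expression filter, 27 with replicates 1 and 2 only, 22 with these and the length and GC correction, and 27 with these in DESeq2. It ran from 0 to 27 when single libraries were left out, and 2, 0, 2 and 0 to 1 were higher in the last 4 of these settings. At that p, 648 of 20167 tested genes were lower with all 6 libraries, 821 with upper quartile scaling and 556 with total counts. Without the expression filter, 1164 of 32782 were lower. With replicates 1 and 2, 4136 of 20633 were lower and 4315 higher. These were 3367 and 2710 with the correction, and 3855 and 3756 in DESeq2 without it. With single libraries left out, 424 to 3185 were lower and 155 to 3109 higher. The number called after adjustment, 0 with all 6 libraries, was 26 with replicates 1 and 2, 10 with the correction and 27 in DESeq2. It ran from 0 to 4 with single libraries left out. The partner genes gave 12, 7, 12 and 0 to 3. Of all tested genes, 2670 were called lower and 2937 higher with replicates 1 and 2. These were 1414 and 1053 with the correction, and 2911 and 2890 in DESeq2 without it. Without control replicate 3 they were 467 and 597 of 20634, and 0 without any other single library. Members not overlapping between groups were 37 lower and 3 higher with replicates 1 and 2 (86% and 6.98%, against 35.6% and 33.4% of all tested genes), and ran from 8 to 30 lower and from 0 to 1 higher with single libraries left out; the 30 came without control replicate 3 (69.8%, against 25.1% of all tested genes), and 23 without APAP+IBU replicate 3 (53.5%, against 15.4%). Leaving out any one of the other 4 libraries gave 0 members at an unadjusted p under 0.05, beside 424 to 484 lower tested genes. The cause of these changes was not tested. Deviations from the group means had correlations across genes of -0.07, -0.02 and -0.04 between same-numbered pools. These values rest on means of 3 pools and cannot decide whether equal numbers mark pools of the same experiment. Liver markers were high in both replicate 3 pools. With the replicate number as a block 0 members had an unadjusted p under 0.05, and 2 with the block and the correction. Of 20167 tested genes, 382 were lower and 299 higher at that p with the block, and 761 and 682 with both.

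Small fold changes changed sign. Psmb9 was 0.019 with total counts, 0.048 with the replicate block, 0.21 with the correction and 0.25 with both. H2-K1 was 0.004 with the block, 0.18 with the correction, 0.17 with both and 0.21 with replicates 1 and 2 corrected. Psmb8 was 0.037 with the correction, and Psme4 -0.018 with it and -0.017 with the block added. B2m was -0.048 with replicates 1 and 2, -0.093 corrected and -0.057 in DESeq2. With single libraries left out, Psmb8 ran from -0.99 to 0.28, Psmb9 from -0.33 to 0.43, B2m from -0.11 to 0.20, H2-K1 from -0.31 to 0.17 and Tap1 from -0.45 to 0.057, and the log2 ratios from -0.38 to 0.47 (Psmb8/Psmb5), -0.25 to 0.059 (Psmb10/Psmb7) and -0.035 to 0.33 (Psma8/Psma7).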
